A study of Homo sapiens with 24 samples.

Results

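The genes described here are 7 members of the prostaglandin pathway, PLA2G4A, PTGS1, PTGS2, PTGES, HPGD, PTGER2 and PTGER4, of 21569 genes named in the H3K27Ac region tables of the series. A region was taken as theirs where its annotation named a member as overlapping it or as the neighbour within 10 kb, and intergenic regions in a fixed window of chromosome 14 around PTGER2 (GRCh38) were added as the PTGER2 3′ locus. This gave 78 of 171345 regions in 6 tables, with 24 of 50284 regions in the 10A comparison of shANCO1 with shCTRL and 14 of 44790 in the DCIS comparison. The members and the locus were chosen with the H3K27Ac changes known, so their counts are a description and were not tested against the rest of the genome.

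The study asked how loss of ANCO1, the chromatin co-repressor encoded by ANKRD11, changed H3K27Ac, an acetyl mark on histone H3 found at active promoters and enhancers. ChIP-seq was run on MCF10A (10A), an immortalized non-malignant human mammary epithelial line, and MCFDCIS (DCIS), a line from the same lineage that models ductal carcinoma in situ. Each line carried a lentiviral hairpin that was either directed at ANCO1 (shANCO1) or a control (shCTRL). The deposited comparisons name the control shGFP, and the study lists a GFP hairpin among its plasmids. Each of the 4 resulting cell populations was represented by 3 immunoprecipitated and 3 input libraries, 24 libraries in 8 groups. All cells, controls included, had been infected with lentivirus, selected with puromycin and grown in medium with horse serum, EGF, hydrocortisone, insulin and cholera toxin. The study names the line of a single hairpin, shANCO1 #3, for its H3K27Ac comparison, and nothing in the labels says whether the 3 libraries of a group came from separate cultures. Every value below is therefore of a whole group, with no spread between libraries, and the read depth behind a region is unknown. In bulk chromatin, a mark on more cells and more mark in each cell cannot be told apart.

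Prostaglandins are lipid signals made on demand. Cytosolic phospholipase A2, encoded by PLA2G4A, frees arachidonic acid from membranes, the cyclooxygenases encoded by PTGS1 and PTGS2 turn it into prostaglandin H2, and the microsomal synthase encoded by PTGES turns that into prostaglandin E2. HPGD encodes the dehydrogenase that inactivates prostaglandin E2, while PTGER2 and PTGER4 encode the EP2 and EP4 receptors, which raise cyclic AMP in the responding cell. In epithelia PTGS2 and PTGES are known as inducible genes of inflammation, and prostaglandin E2 is a well-known signal in breast tumours.

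The 2 lines had most of the listed marks of basal mammary epithelium. In shCTRL cells of each line, 4 of 5 basal markers had H3K27Ac enriched over input (KRT5, TP63, ITGB4 and LAMB3, but not KRT14), as did 2 of 2 epithelial markers, CDH1 and EPCAM. Of 3 markers of hormone-sensing luminal cells only ESR1 was enriched, at 7 regions in 10A shCTRL and 2 in DCIS shCTRL. TP63 had 10 and 4 such regions and KRT5 had 2 and 3. PDGFRA was the 1 of 2 fibroblast markers enriched in 10A and none was in DCIS, and 0 of 2 leukocyte markers were enriched. The share of all genes with an enriched region was not computed. H3K27Ac does not measure the knockdown itself.

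The DNA that carried the mark at these genes in every cell population is shown first. An element is a set of overlapping regions from any table, and of 23 elements 9 were enriched over input in some group and 5 in all 4 cell populations. The sequences below are the segments enriched in all 4 populations, on the strand of the gene and on GRCh38, cut to 300 bases at the midpoint where longer. PTGES and PTGER4 each had a further such segment, of 100 and 200 bp, that is not printed. Capitals mark matches on either strand to AP-1 (TGACTCA or TGAGTCA), CRE (TGACGTCA), TEAD (GGAATG, or CATTCC on the other strand), NF-kB (the usual consensus of 10 letters) or the E-box CACGTG, and no capitalised match overlaps another.
PTGS2, chr1:186680801-186681100, minus strand: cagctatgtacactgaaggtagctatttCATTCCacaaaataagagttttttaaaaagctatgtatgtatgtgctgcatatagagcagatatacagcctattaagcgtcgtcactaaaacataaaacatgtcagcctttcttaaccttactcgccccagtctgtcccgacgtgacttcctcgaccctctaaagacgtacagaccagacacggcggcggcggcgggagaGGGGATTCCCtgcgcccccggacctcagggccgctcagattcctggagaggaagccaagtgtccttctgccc
PTGES, chr9:129752401-129752700, minus strand: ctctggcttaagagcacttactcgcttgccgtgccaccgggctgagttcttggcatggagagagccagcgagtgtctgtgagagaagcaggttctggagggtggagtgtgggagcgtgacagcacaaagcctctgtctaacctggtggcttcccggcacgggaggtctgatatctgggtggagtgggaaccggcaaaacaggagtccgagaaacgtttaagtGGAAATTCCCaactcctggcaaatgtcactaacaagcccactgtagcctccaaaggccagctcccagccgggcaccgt
PTGER4, chr5:40679501-40679700, plus strand: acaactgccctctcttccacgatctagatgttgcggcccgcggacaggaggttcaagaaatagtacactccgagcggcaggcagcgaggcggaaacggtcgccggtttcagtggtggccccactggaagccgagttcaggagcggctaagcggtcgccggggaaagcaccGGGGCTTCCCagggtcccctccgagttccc
PLA2G4A, chr1:186829101-186829300, plus strand: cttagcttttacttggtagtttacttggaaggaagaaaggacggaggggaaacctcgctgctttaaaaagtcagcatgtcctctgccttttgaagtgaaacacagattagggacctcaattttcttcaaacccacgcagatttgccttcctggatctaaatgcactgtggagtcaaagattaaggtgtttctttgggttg
PTGER2 3′ locus, chr14:52354901-52355100, plus strand: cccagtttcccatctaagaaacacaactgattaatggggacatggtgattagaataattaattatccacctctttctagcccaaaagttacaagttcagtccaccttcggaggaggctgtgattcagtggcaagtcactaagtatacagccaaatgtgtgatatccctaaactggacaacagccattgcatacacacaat

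The PTGS2 segment lay upstream of the gene and held an NF-kB match that began 449 bases before the start site, together with a TEAD match 649 bases before it. In PTGES the segment lay in the first intron, with an NF-kB match 564 bases past the start site, and in PTGER4 it lay upstream, with an NF-kB match 244 bases before the start. The PLA2G4A segment, in the first intron, and the intergenic segment 40.7 kb past the PTGER2 start held none of the 5 motifs. A match of letters is not a site that a factor was seen to occupy.

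In 10A cells, H3K27Ac rose on knockdown at some region of 6 of the 7 genes and at 2 regions of the PTGER2 3′ locus, and it fell at 1 region of that locus. Of the 24 regions, 12 (50%) passed a false discovery rate (FDR) of 0.05 upward in the deposited csaw test, beside 43.6% of all 10A regions, and 1 passed downward, beside 0.225%. The share that rose was thus near the background of a line in which gains were general. These counts took every region that passed, enriched over input or not. The study's counts of gained peaks match a narrower set, where the region also overlaps one enriched over input in the knockdown cells. With that overlap required, 7 of the 12 remained, at PTGS2, PTGES, PTGER4 and the PTGER2 3′ locus. The other rising regions dropped out, among them those of PTGS1, HPGD and PTGER2 itself. Log2 fold changes ran from -1.37 to 1.34 with a median of 0.75, next to a median of 0.76 over all 10A regions, and 12 of the 24 lay above that table median. The normalisation that sets the zero of this scale is not given in the sources used here, so each value is also read against the table median.

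In DCIS cells, 0 of 14 regions passed the same threshold in either direction in the csaw test, beside 23.6% of all DCIS regions upward and 4.86% downward. The smallest FDR was 0.0508. Of the 14 log2 fold changes 11 were positive, from -1.22 to 1.67 with a median of 0.74, and the median of all DCIS regions was 0.52. The count of 0 does not show that these genes were without change in DCIS, and the difference between the lines was not tested, since the tables hold no value per library. No region over PTGS1 or HPGD, or at the PTGER2 promoter, was analysed here in DCIS.

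**Figure D1:**
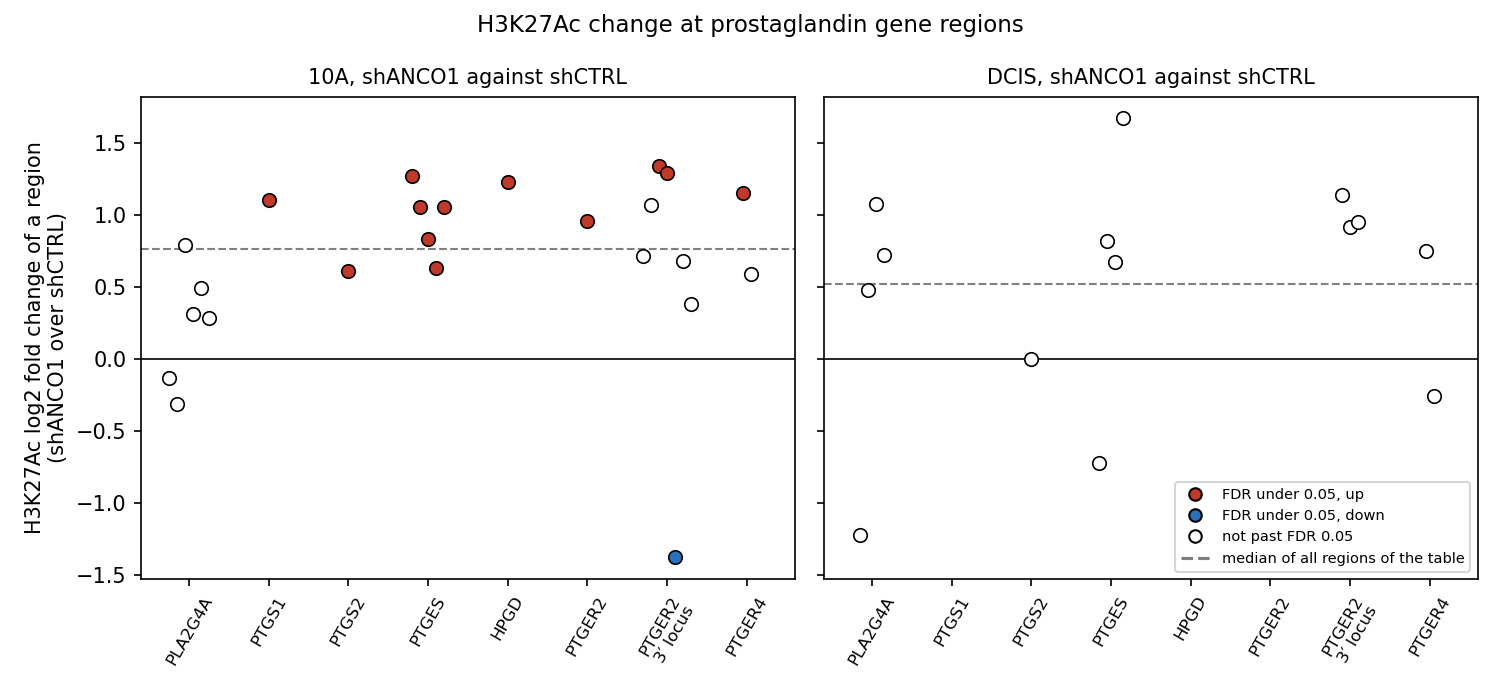
Log2 fold change of H3K27Ac (shANCO1 over shCTRL, vertical axis) for each region of the 7 genes and the PTGER2 3′ locus, with 10A on the left and DCIS on the right; a point is 1 region of whole groups of 3 libraries, red passed FDR 0.05 upward, blue downward, and the dashed line is the median of all regions of that table. In 10A the 12 red points lie between 0.61 and 1.34 and the blue point at -1.37, and in DCIS no point is filled.

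PLA2G4A, the phospholipase gene, was the member with no called change in either line. It had 6 regions in 10A and 4 in DCIS, and 0 of them were called. Its promoter region (chr1:186828601-186829600, from upstream through the 5′ UTR into the first intron) had a log2 fold change of -0.13 in 10A (FDR 0.896), a value above only 5.47% of the 10A regions. In DCIS the promoter stood at -1.22 (FDR 0.346). The region nearest to the threshold in 10A was in an intron, chr1:186948401-186949000, with 0.79 (FDR 0.0755), and the DCIS region over the same place had 1.08 (FDR 0.24). The 4 remaining 10A regions, also in introns, ran from -0.31 to 0.49.

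Over input, the PLA2G4A promoter carried a narrow mark in every population. The log2 enrichment was 2.32 in 10A shCTRL, 2.83 in 10A shANCO1, 2.94 in DCIS shCTRL and 3.30 in DCIS shANCO1, over 200 to 400 bp, and fewer than 1 in 10 of the enriched regions of a table lay below it except in 10A shANCO1, where 19.5% did. A second enriched region, chr1:186958901-186959100 in an intron near the far end of the gene, was seen in 10A shANCO1 alone, with 3.64. The direct comparison at that place gave 0.28 (FDR 0.782), so its presence in a single population was not matched by a called change.

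Of the cyclooxygenase genes, only the inducible one had regions enriched over input. PTGS1, the constitutive enzyme, had a single region in 10A, chr9:122383501-122384200, over coding exon and intron sequence 12.8 kb past the start site. It rose with a log2 fold change of 1.11 (csaw FDR 0.00831), and 5 of its 6 windows rose. That value lay above 81.0% of the 10A regions. PTGS1 was enriched over input in 0 of the 4 populations, so the rise was measured at a place where neither 10A population passed the test over input.

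PTGS2, the inducible enzyme, was marked upstream of its start in all 4 populations. The enriched length was 700 bp in 10A shCTRL, 900 bp in 10A shANCO1, 800 bp in DCIS shCTRL and 700 bp in DCIS shANCO1, with log2 enrichments in the upstream segment of 3.08, 2.91, 3.49 and 4.35. The 700 bp of 10A shCTRL consist of 500 bp upstream and a 200 bp region in an intron, which had 4.63. Enrichments of different populations come from separate comparisons with input and are placed side by side only. On knockdown the 10A region chr1:186679801-186681700, which spans the NF-kB match printed above, rose with 0.61 (csaw FDR 0.0381, 6 of 18 windows up). This was 0.15 below the median of all 10A regions, and 35.2% of regions lay below it. In DCIS the region had 0.0043 (FDR 0.998, 0 of 15 windows up). The lncRNA gene PACERR overlaps the same regions on the other strand, and ChIP-seq does not tell which of the genes the mark belongs to.

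PTGES held 122 of the 157 rising windows of these genes and the locus in 10A. It also held 174 of their 332 tested windows and 18500 of their 37100 bp, so its count follows in part from its width. The share of rising windows over all 10A regions was not computed. None of the PTGES regions was called in DCIS. All 5 of its 10A regions rose, 1 of them 9.66 kb upstream of the start and 4 along the gene, and 122 of their 174 windows were up. The region over the 3′ end (chr9:129737501-129741100) had the highest log2 fold change, 1.27 (csaw FDR 0.00446, 27 of 32 windows). The next region, in introns (chr9:129741001-129744600), had 1.06 (FDR 0.000585, 18 of 35 windows), and chr9:129745201-129749700 had 0.84 (FDR 0.00204, 30 of 41 windows). The region over the promoter (chr9:129749601-129754000) had the lowest value, 0.64, although the largest share of its windows rose, 37 of 43 (FDR 0.00552). The upstream region, chr9:129761401-129764000, had 1.06 (FDR 0.032, 10 of 23 windows). Along the gene the values were thus lowest at the promoter and highest at the 3′ end, with the promoter 0.13 below the table median and the 3′ region 0.51 above it. Some neighbouring pieces share 100 bp, so the 5 regions are not 5 independent observations.

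The enriched stretch over PTGES was longer in 10A shANCO1 than in 10A shCTRL. In 10A shCTRL it covered 3700 bp in 2 regions with log2 enrichments of 2.81 and 3.11 (30 windows). In 10A shANCO1 it covered 7500 bp in 5 regions, with 3.98 at the promoter, 3.89 and 4.24 further into the gene, 2.54 at 9.44 kb past the start and 3.20 upstream (70 windows). The upstream region was enriched in 10A shANCO1 and not in 10A shCTRL. Enriched regions of the whole table likewise covered 9.03 Mb in 10A shCTRL and 25.24 Mb in 10A shANCO1, 2.8 times as much, while those of all the prostaglandin genes and the locus went from 6100 bp to 11600 bp, 1.9 times. The gain in covered length at PTGES thus came in a line where covered length grew across the genome.

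In DCIS the mark at PTGES was short and the knockdown values were mixed in sign. Enriched regions assigned to PTGES covered 1300 bp in DCIS shCTRL and 1400 bp in DCIS shANCO1, and the upstream element was enriched in each, with 3.67 and 3.42. A further DCIS shCTRL region in that element, chr9:129763601-129763800 (3.59), lay past the 10 kb reach and is not in the 1300 bp. The order of the 2 lengths therefore depends on that reach. In the direct comparison that element (chr9:129761601-129764200) stood at 1.67 on the log2 scale (FDR 0.0508), just over the threshold, with 1 of 24 windows up. The promoter region had 0.68 (FDR 0.477), the region in the gene 0.82 (FDR 0.296) and the region at the 3′ end -0.72 (FDR 0.291), the opposite sign to the 1.27 of 10A there. Covered length over the whole table was 10.95 Mb and 11.86 Mb in the 2 DCIS populations.

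**Figure D2:**
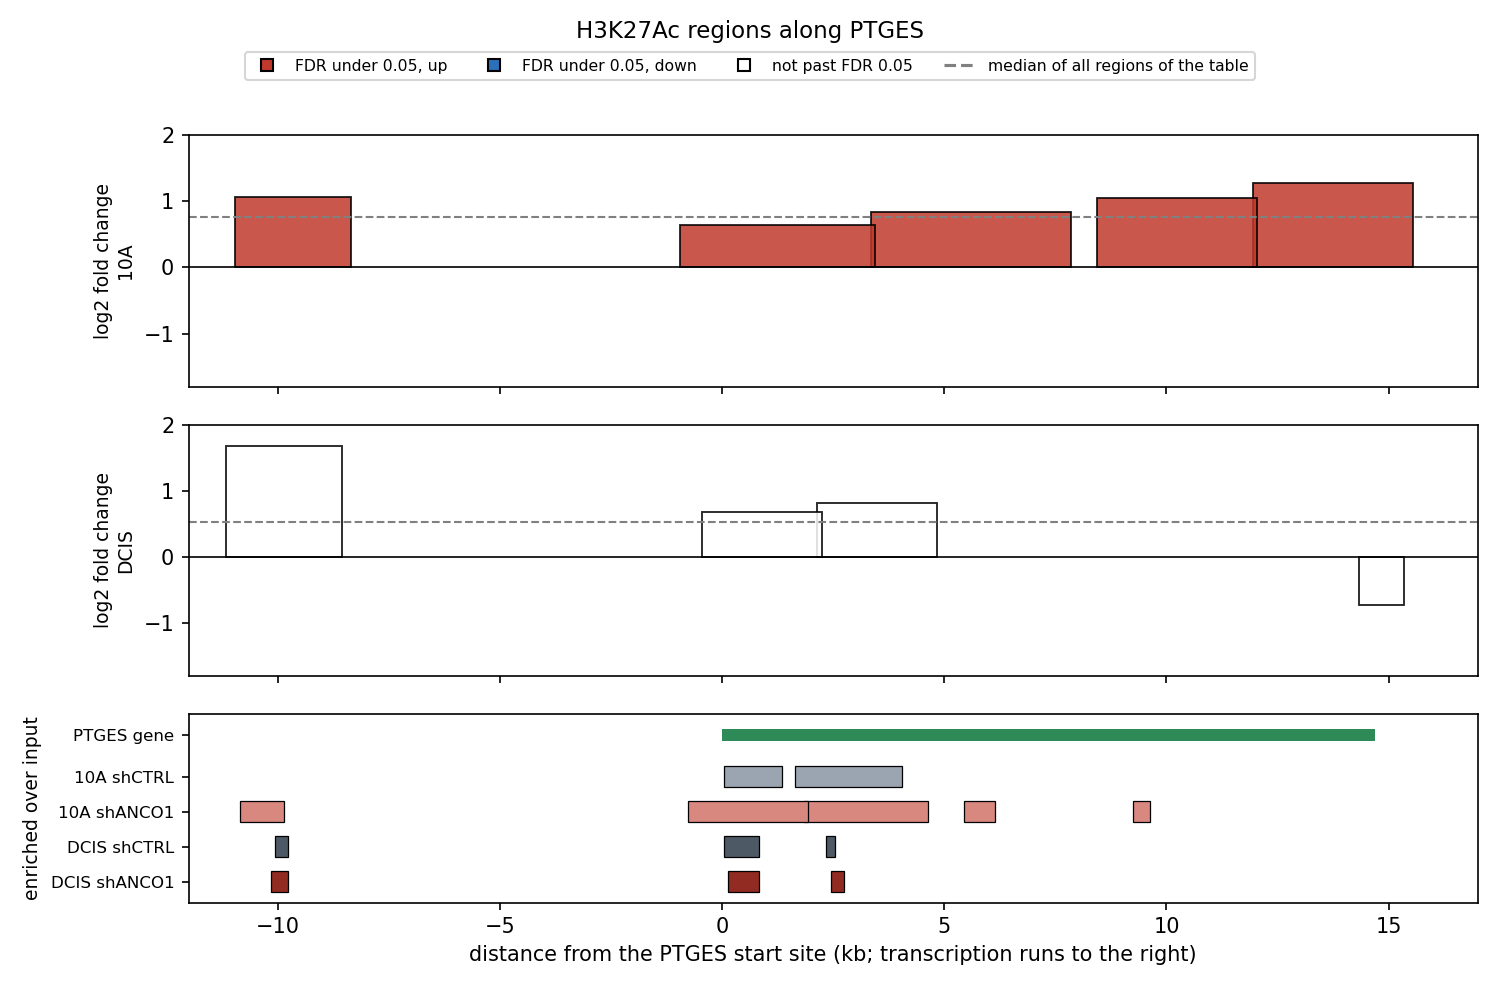
H3K27Ac regions along PTGES by distance from its start site in kb; bars in the upper panels give the log2 fold change of each region in 10A and DCIS (red passed FDR 0.05 upward, white did not pass, dashed line the table median), and the lowest panel gives the enriched regions of each population beside the gene in green. All 5 bars are red in 10A and 0 of 4 in DCIS, and the enriched stretch is longest in 10A shANCO1, at 7500 bp. The DCIS shCTRL region chr9:129763601-129763800, past the 10 kb reach, is not drawn.

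HPGD, whose product removes prostaglandin E2, had a single region in 10A. This lay in an intron, chr4:174502901-174503400, 19.3 kb past the start site, and it rose with a log2 fold change of 1.23 (csaw FDR 0.00677, 4 of 4 windows up), above 87.9% of the 10A regions. The gene was enriched over input in 0 of the 4 populations. Genes that make and that remove prostaglandin E2 thus both had a rising region in 10A, PTGES over 18500 bp and HPGD over 500 bp.

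**Figure D3:**
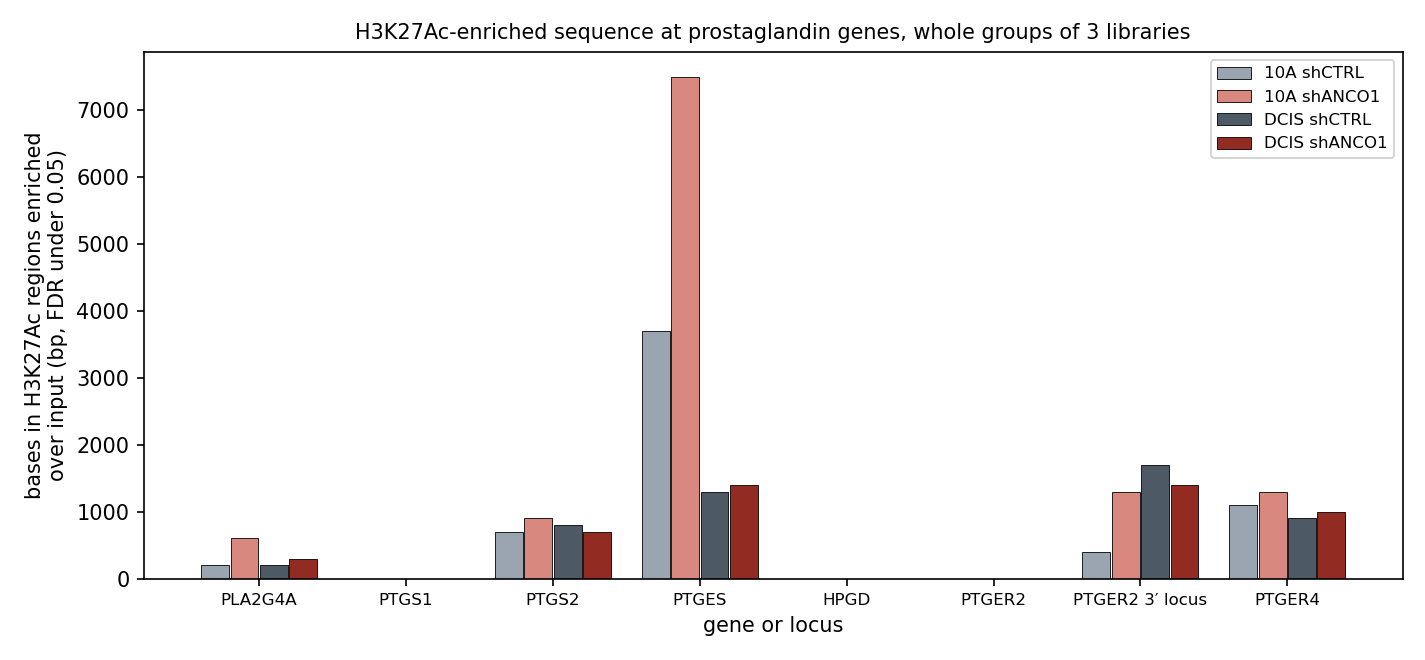
Bases covered by H3K27Ac regions enriched over input (FDR under 0.05, vertical axis in bp from 0) at each gene and at the PTGER2 3′ locus, with a bar for each population of 3 libraries. PTGES has the tallest bars, 3700 bp in 10A shCTRL and 7500 bp in 10A shANCO1, and PTGS1, HPGD and the PTGER2 promoter have none. For the genes, regions past the 10 kb reach are not counted.

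The promoter of the receptor gene PTGER4 was marked in every population, at regions that also lie within TTC33 on the other strand, so the mark cannot be assigned to PTGER4 alone. In 10A shCTRL 3 enriched regions covered 1100 bp, with log2 enrichments of 6.56, 5.23 and 2.46 from the most upstream to the one nearest the start, and in 10A shANCO1 3 regions covered 1300 bp with 4.97, 3.21 and 3.18. The segment 1.97 kb upstream of the start was enriched in the 2 populations of 10A and in neither of DCIS. In DCIS shCTRL 900 bp were enriched with 3.50, and in DCIS shANCO1 1000 bp with 5.53. On knockdown the 10A region chr5:40677101-40680400 rose with 1.16 (csaw FDR 0.00937), although only 4 of its 32 windows were up. The DCIS promoter region had 0.75 (FDR 0.186, 0 of 14 windows up). A region in an intron 9.13 kb past the start had 0.59 in 10A (FDR 0.222), and the DCIS region there had -0.25 (FDR 0.794).

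PTGER2 itself had 1 region, a narrow one 0.362 kb upstream of the start in 10A. It rose with a log2 fold change of 0.96 (csaw FDR 0.0302, 2 of 2 windows up) and was enriched over input in 0 of the 4 populations. Across promoter-annotated regions, 50.8% rose in 10A and 16.3% in DCIS. The whole region is printed because it is the only DNA of PTGER2 that changed at the gene, and it held none of the 5 motifs.
PTGER2 upstream, chr14:52313801-52314100, plus strand: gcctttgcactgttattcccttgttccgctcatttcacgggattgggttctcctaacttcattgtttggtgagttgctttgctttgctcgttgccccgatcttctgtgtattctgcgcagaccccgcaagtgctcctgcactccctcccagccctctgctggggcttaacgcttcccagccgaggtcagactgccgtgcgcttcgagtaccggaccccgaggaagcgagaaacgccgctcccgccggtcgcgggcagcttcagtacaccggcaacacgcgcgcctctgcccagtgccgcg

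The intergenic stretch 3′ of PTGER2 held both a gain and a loss in 10A. Of its 7 regions there, 2 rose and 1 fell, whereas over all 10A regions with no gene in the overlap column 39.2% rose. The 2 that rose lay close together, 37.5 kb past the PTGER2 start (chr14:52351001-52352700, log2 fold change 1.34, csaw FDR 0.0146, 3 of 13 windows up) and 40.8 kb past it (chr14:52354101-52356200, 1.30, FDR 0.000812, 9 of 20 windows up). The second was the element enriched in every population, with 3.07 over 400 bp in 10A shCTRL and 4.17 over 1300 bp in 10A shANCO1. The element at 37.5 kb was enriched in none.

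The region that fell, chr14:52369101-52370400, stood 55.4 kb past the start, beyond the rising element. Its log2 fold change was -1.37 (csaw FDR 0.00669, 2 of 9 windows down), and only 0.00795% of the 10A regions had a lower value. It was enriched over input in neither 10A population. The 10A region next to it, chr14:52370801-52371400, had 0.68 (FDR 0.177), and the 3 further regions of the stretch had 0.72 (FDR 0.384), 1.07 (FDR 0.0803) and 0.39 (FDR 0.661).

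In DCIS shCTRL the wider element around the region that fell in 10A had the highest log2 enrichment over input of these genes. In DCIS shANCO1 the PTGER4 promoter, at 5.53, was higher. The DCIS shCTRL cells had 3 enriched regions there, with log2 enrichments of 7.52, 3.79 and 7.06 over 12 windows, and DCIS shANCO1 had 2, with 4.74 and 4.23 over 9 windows. The first of these, at chr14:52368701-52369200, lay above 96.8% of the enriched regions of DCIS shCTRL, but it overlapped only the edge of the region that fell in 10A. The region with 3.79, chr14:52369801-52370400, lay within that fallen region, and it was above 39.9% of the enriched regions of DCIS shCTRL. The region with 7.06 lay outside the fallen region. The direct DCIS comparison over the whole element (chr14:52368501-52371400) had 0.95 and an FDR of 0.435, with 0 of 28 windows up. At the element 40.8 kb past the start, DCIS had 4.75 over input in shCTRL, 3.86 in shANCO1 and a log2 fold change of 0.92 between them (FDR 0.0974, 3 of 16 windows up), and the region at 28.8 kb had 1.14 (FDR 0.122). Across all DCIS regions with no gene in the overlap column, 31.6% rose. The 2 segments enriched in DCIS alone are printed below, and the first holds an AP-1 match, chr14:52369075-52369081, just outside the edge of the region that fell in 10A.
DCIS segment 54.7 kb past the PTGER2 start, chr14:52368851-52369150, plus strand: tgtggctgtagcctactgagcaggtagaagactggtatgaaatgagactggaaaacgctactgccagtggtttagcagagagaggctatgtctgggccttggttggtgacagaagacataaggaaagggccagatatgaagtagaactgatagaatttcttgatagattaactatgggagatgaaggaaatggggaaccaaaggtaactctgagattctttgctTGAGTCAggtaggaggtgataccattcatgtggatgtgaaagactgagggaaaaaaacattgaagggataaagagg
DCIS segment 55.8 kb past the PTGER2 start, chr14:52369951-52370250, plus strand: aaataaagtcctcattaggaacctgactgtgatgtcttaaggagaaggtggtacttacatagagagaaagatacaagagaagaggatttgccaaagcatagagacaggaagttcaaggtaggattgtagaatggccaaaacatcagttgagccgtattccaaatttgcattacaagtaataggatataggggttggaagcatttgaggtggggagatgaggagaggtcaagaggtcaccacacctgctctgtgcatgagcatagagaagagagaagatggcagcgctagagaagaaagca

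**Figure D4:**
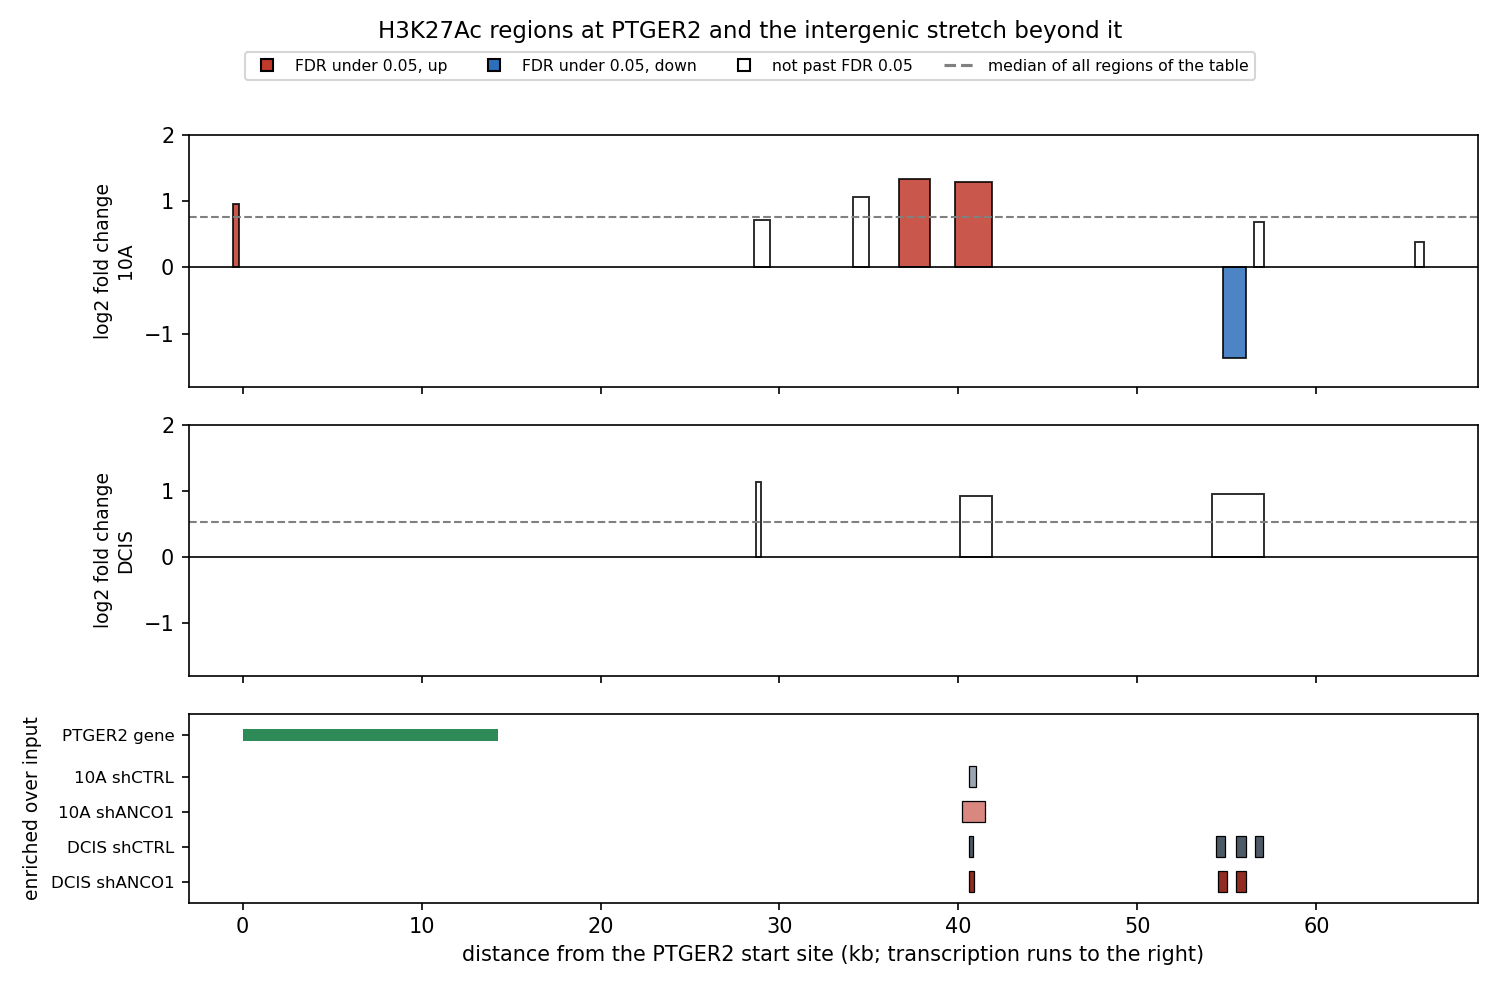
H3K27Ac regions at PTGER2 and in the intergenic stretch beyond its 3′ end, by distance from the PTGER2 start site in kb; bars give the log2 fold change of each region in 10A and DCIS (red rose, blue fell, white did not pass FDR 0.05, dashed line the table median), and the lowest panel gives enriched regions by population. The blue bar at -1.37 in 10A stands within a wider element where only the 2 DCIS populations have enriched regions, with 3 in shCTRL and 2 in shANCO1. Not all of these lie under the blue bar, and the shCTRL region chr14:52370901-52371300 is outside it.

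The limits of the chromosome 14 window were set by hand. The last 10A region before it, chr14:52240701-52242000, had 1.30 (FDR 0.00865), and the first after it, chr14:52455301-52456600, had 0.18 (FDR 0.742). In DCIS the neighbours outside were 0.78 (FDR 0.597) before and 1.51 (FDR 0.0046) after, the latter at chr14:52458201-52458700. The outermost intergenic regions inside had 0.72 and 0.39 in 10A and 1.14 and 0.95 in DCIS.

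Not all of the rising regions lay on chromatin that passed the test over input. Of the 12 that rose in 10A, 5 overlapped a region enriched in 10A shCTRL (41.7%, beside 34.6% of all rising 10A regions). A region enriched in 10A shANCO1 was overlapped by 7 (58.3%, beside 70.0% of all rising 10A regions). The remaining 5 overlapped neither, and these were the single regions of PTGS1, PTGER2 and HPGD, the 3′ end of PTGES and the intergenic region 37.5 kb past PTGER2. How many of all rising 10A regions overlapped neither was not computed. In DCIS 8 of the 14 regions (57.1%) overlapped a region enriched in shCTRL, and 8 one enriched in shANCO1, beside 12083 and 13586 of the 44790 DCIS regions. The tables over input hold enriched regions almost alone, with 100 percent of rows called in 10A shCTRL and 100 percent in 10A shANCO1, DCIS shCTRL and DCIS shANCO1, so a count of enriched members has no background of untested regions.

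Transcription factor motifs were counted in the regions and are given beside their share in all regions of the table, with no test. The window searched was 500 bp centred on the midpoint of a region, which reaches past the ends of narrower regions. AP-1 letters were in it for 3 of the 24 10A regions, where 18.3% of all 10A regions had them, and for 2 of the 14 DCIS regions (15.4% of all). NF-kB letters were there for 2 of 24 (13.3% of all) and 2 of 14 (14.8% of all). For PTGER2 in 10A the NF-kB match lay in the window but outside the 300 bp region itself. TEAD letters were in 7 of 24 (27.9%) and 2 of 14 (27.1%), CRE in 0 of 24 (0.573%) and 0 of 14 (0.668%), and the E-box in 0 of 24 (6.87%) and 1 of 14 (7.75%). Over whole regions, NF-kB letters were in 8 of 24 10A regions (26.8% of all) and 7 of 14 DCIS regions (27.5% of all). PTGES held most of the 10A matches, with 7 in the promoter region and 4 in the upstream region. Those regions span 4400 and 2600 bp, where the median 10A region spans 1000 bp, and wider regions hold more matches. In the 250 bases before the RefSeq start sites, NF-kB letters were found for PTGER4, PTGER2 and a start of HPGD, 3 of 9 starts of the 7 genes (9.96% of 35116 promoters), and no AP-1 (4.2%), CRE (1.65%), TEAD (11.9%) or E-box (6.34%) letters for any of the 9.

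The wider eicosanoid pathway, a list of 35 genes chosen by textbook role, had called gains in each line and called losses in DCIS. In 10A 25 of the 35 had regions, 107 in all, of which 58 rose (54.2%, beside 43.6% of all 10A regions) and 0 fell (0.225% of all) by the deposited csaw test. In DCIS 24 had regions, 89 in all, of which 25 rose (28.1%, beside 23.6% of all DCIS regions) and 6 fell (6.74%, beside 4.86%). The medians were 0.86 and 0.46, beside 0.76 and 0.52 over all regions.

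Of the list, 20 genes had a called gain in 10A and 9 in DCIS, and each of those in DCIS also had one in 10A. MGLL, ABCC4 and ALOX5AP, which had the lowest FDRs among the DCIS gains, were among the genes that rose in each line. MGLL, whose product releases arachidonic acid by way of 2-arachidonoylglycerol, rose at 10 of 19 regions in 10A (1.90, FDR 3.2e-05) and 12 of 13 in DCIS (3.23, FDR 2.83e-08). ABCC4, an exporter of prostaglandins, rose at 6 of 7 in 10A (1.55, FDR 0.000118) and 2 of 4 in DCIS (2.88, FDR 1.1e-05). ALOX5AP, the helper protein of 5-lipoxygenase in the leukotriene branch, rose at 7 of 9 (1.17, FDR 0.000495) and 3 of 3 (2.41, FDR 8.52e-05), and in 10A the second lowest FDR belonged to ALOX12, a lipoxygenase (1.30, FDR 9.55e-05). The 2 genes of the list with a called fall, both in DCIS, were AKR1C3, a prostaglandin F synthase, at 5 of 8 regions (-2.86, FDR 4.02e-05), and FAAH, which degrades anandamide, at 1 of 3 (-1.37, FDR 0.0365). In 10A AKR1C3 rose at 2 of 4 regions (1.23, FDR 0.00257) and FAAH at 1 of 2 (1.07, FDR 0.0145), and whether the lines differ there was not tested. Among the receptors on the list, PTGFR rose at 2 of 7 regions in 10A (1.09, FDR 0.000887) and at 0 of 1 in DCIS.

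For 4 members an overlapping region was present in all 6 tables, and the genes with the most similar values were found by Euclidean distance over the 6 log2 fold changes of the lowest-FDR region, among 6962 other genes. For PTGS2 the nearest was PACERR at distance 0, which shares its regions, then ZNF337 at 0.29 and ASH2L at 0.35. PTGES was nearest to MLLT10 at 0.31, NARS1 at 0.36 and SUMO2 at 0.36. Its DCIS value there was the -0.72 of the uncalled 3′ end region (FDR 0.291). Another PTGES region in DCIS had 0.82 at nearly the same FDR (0.296), so these neighbours depend on a close choice of region. PLA2G4A was nearest to IFT81 at 0.33, ZNF235 at 0.39 and BNIP1 at 0.41, and PTGER4 had no gene as close, with WARS2 at 0.80, RAP1GDS1 at 0.88 and SNX14 at 0.97. The 6 comparisons share libraries, and the distance describes likeness of values only.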

How the data were processed

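H3K27Ac ChIP-seq and input libraries of 10A and DCIS cells with shANCO1 or shCTRL were analysed, 24 libraries in 8 groups of 3 by their labels. By their methods section, the authors used BWA and Rsubread for alignment to GRCh38, samtools to drop duplicates and csaw for differential binding, and the submitters' processing notes also name FastQC and HOMER. The deposited tables give 1 row per merged region, with the authors' log2 fold change of a representative window (shANCO1 over shCTRL, or immunoprecipitation over input), the deposited FDR (the region p-value after Benjamini-Hochberg adjustment over the whole table), and the deposited count of windows tested, up and down. These windows are not reads. Normalization, prior count, filtering and the choice of input libraries are not given in the sources used here, and they can move all log2 values of a table together. The columns are the authors' own comparison and the measurement itself, since the tables used here hold no value per library, so no model was refitted and no test was added.

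The deposited direction of each region with FDR under 0.05 was counted with Python 3.11.15 with pandas 2.3.3 and numpy 2.4.6 (figures with matplotlib 3.10.9). Regions were assigned by the symbol in the annotation columns. Start sites were those of the canonical transcript in GENCODE release 44, and promoter windows were from RefSeq on GRCh38. Overlap was at least 1 bp, and a called change did not require overlap with a region enriched over input. The counting code was tested on simulated tables. The alternatives were FDR 0.01 and 0.1 (1e-10 over input), a minimum absolute log2 value of 1, direction by sign, at least 5 windows, assignment by coordinates with 5 kb on each side, the overlap column alone, centring on the table median, 50% coverage, other choices of leading region and other motif windows. Named genes were the 7 members and, from the pathway list, those with the lowest FDR in each direction and line; AKR1C3 and FAAH in 10A, and PTGFR, were named after their values were seen. The members and lists were chosen with earlier results of these data known.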

Additional observations from a re-analysis of the deposited data

How the results depend on the processing

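No paired analysis was possible because the tables hold whole groups only, and for the same reason no library could be left out. With the 10A values centred on the table median and at least 1 from it required, 0 regions rose in place of 12, and the 1 that fell stayed. That is a high bar, as the highest value of these regions, 1.34, lay above 92.3% of all 10A regions. The share of all 10A regions that pass it was not computed. At FDR under 0.1, 2 DCIS regions rose in place of 0. Regions enriched at FDR under 1e-10 were 4 in 10A shCTRL, 6 in DCIS shCTRL and 5 in DCIS shANCO1, and with at least 5 windows they were 3 in 10A shCTRL, 7 in 10A shANCO1, 4 in DCIS shCTRL and 4 in DCIS shANCO1. With 50% of a rising 10A region required to be covered, 1 lay over chromatin enriched in shCTRL and 2 over that of shANCO1. The sign turned for PTGS2 after centring, to -0.15 in 10A and -0.52 in DCIS, and for PLA2G4A in 10A, to -0.13, where the region with the most windows or the promoter was taken. Under the remaining alternatives 41 counts of the comparisons stayed within 1.5 times of the reported count. Many of these are DCIS counts that stayed at 0 or the single 10A fall that stayed at 1, so the 41 say little about the larger counts. Among single genes and motifs, 36 values kept their sign or their count, though some fold changes shrank on centring (PTGS1 in 10A from 1.11 to 0.34), and 15 motif counts changed with the width searched. Read depth is unknown, so a region not called may be one with few reads.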

Other observations

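The surroundings of the genes, 100 kb on each side of the start site, were examined as an addition made after the values were seen. Around PTGES, 10 of 13 regions rose in 10A and 0 of 14 in DCIS by the deposited csaw test, beside 43.6% and 23.6% of all regions. Of the 10, 5 are the PTGES regions already described, 4 overlap other genes (PRRX2, TOR1B, TOR1A, and USP20 with C9orf78), and 1 is intergenic (chr9:129775801-129778700, log2 fold change 1.16, FDR 0.00909). Around PTGER4, 2 of 4 regions rose in 10A and 0 of 3 in DCIS, and the second in 10A, chr5:40754501-40756000 (1.13, FDR 0.000581), overlaps TTC33.

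PLA2G4A, with no called region of its own, had a rising 10A region at -35.6 kb from its start, between it and PTGS2 (chr1:186792501-186794200, 1.44, FDR 6.71e-05, 12 of 16 windows up). That place was enriched over input in 10A shCTRL, at 6.78 and 4.78, and in 10A shANCO1, at 4.98. An intergenic DCIS region at -32.4 kb from the HPGD start, chr4:174554501-174555200, fell by 1.58 on the log2 scale (FDR 0.0168, 6 of 6 windows down). Over all DCIS regions 4.86% fell. It is tied to HPGD by distance alone and lies at another place than the intronic 10A region that rose. In both DCIS populations, 0 regions within 100 kb of the HPGD start were enriched over input.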
